A study of Saccharomyces cerevisiae with 10 samples.

Results

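The 8 genes described here encode the DAN and TIR proteins of budding yeast, serine- and alanine-rich mannoproteins or their close relatives that are made for the cell wall when oxygen is scarce. They were listed by systematic name, a choice made with earlier results of these data known: TIR1 (YER011W), TIR2 (YOR010C), TIR3 (YIL011W), TIR4 (YOR009W), DAN1 (YJR150C), DAN2 (YLR037C, also called PAU23), DAN3 (YBR301W, also called PAU24) and DAN4 (YJR151C). All 8 were among the 7126 yeast transcripts quantified, and all 8 were among the 6390 that passed the filter on low counts.

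RNA primed at its poly(A) tail was sequenced in 10 libraries, 2 from each of 5 groups, all diploids of the laboratory strain BY4743 harvested in mid-logarithmic growth in the rich medium YPD. The groups were [ESI+] diploids, hos2 deletion homozygous diploids, set3 deletion homozygous diploids, snt1 deletion homozygous diploids (called deletants or deletions below) and naive diploids. [ESI+] is a heritable, prion-like state that requires no change in DNA sequence. Hos2, Set3 and Snt1 belong to 1 protein complex, Set3C, in which Hos2 is a histone deacetylase. How many clones each group stands for, whether its libraries came from separate cultures and how much oxygen the cultures had are not given in the sources used here, so the p-values measure the spread between these libraries, which may be technical.

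In well-aerated yeast the DAN and TIR genes are largely silent. Heme made in air keeps the repressors Rox1 and Mot3 active, which work with the Tup1-Cyc8 corepressor, and when oxygen and sterol run low the zinc cluster activator Upc2 switches the family on. The wall then trades its aerobic mannoproteins, such as Cwp1 and Cwp2, for Tir and Dan proteins, and Tir1, Tir3 and Tir4 are each known to be required for growth without oxygen.

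Stretches of 150 bases upstream of 4 members are printed because TIR1 and TIR3 are the 2 that passed the test against naive cells, while DAN1 and DAN4 are neighbours with the same pair of motifs. Each starts 300 bases before the start codon and runs 5′ to 3′ on the gene's strand in the RefSeq genome of build R64, at chrV:174948-175097 (+ strand) for TIR1, chrIX:333427-333576 (+ strand) for TIR3, chrX:709858-710007 (− strand) for DAN1 and chrX:715891-716040 (− strand) for DAN4. Capitals mark TCGTATA, the core of the sterol response element that Upc2 binds, on either strand, and the AR1 site, written TCGTTTAG or TCGTTCAG, also on either strand.
TIR1: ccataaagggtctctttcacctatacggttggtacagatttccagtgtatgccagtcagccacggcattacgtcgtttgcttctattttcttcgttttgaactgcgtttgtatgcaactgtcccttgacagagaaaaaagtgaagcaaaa
TIR3: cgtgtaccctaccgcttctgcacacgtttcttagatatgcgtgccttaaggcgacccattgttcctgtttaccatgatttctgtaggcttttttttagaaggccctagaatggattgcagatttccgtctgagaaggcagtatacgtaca
DAN1: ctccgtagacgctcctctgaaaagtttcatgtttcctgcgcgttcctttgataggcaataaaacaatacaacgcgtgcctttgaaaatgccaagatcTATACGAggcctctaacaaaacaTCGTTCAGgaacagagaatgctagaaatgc
DAN4: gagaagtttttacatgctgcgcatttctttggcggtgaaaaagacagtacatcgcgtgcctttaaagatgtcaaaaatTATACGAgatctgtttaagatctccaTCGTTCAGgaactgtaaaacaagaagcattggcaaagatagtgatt
Over the 500 bases before the start codon, TCGTATA stood in 5 of the 8 members (TIR3, DAN1, DAN2, DAN3 and DAN4), and 7.0% of 6000 promoters of that length held it. An AR1 site stood in 4 of the 8 (TIR4, DAN1, DAN2 and DAN4), against 3.18% of all promoters. In DAN1 the marked TATACGA began 203 bases and the marked TCGTTCAG 180 bases before the start codon, with 16 bases between them, and in DAN4 they began at 222 and 196 bases, with 19 bases between them. The Rox1 core ATTGTTC, on either strand, was found in TIR2, TIR3 and DAN4, which is 3 of 8 members, against 11.8% of all promoters. No match of one motif overlapped a match of another. TIR1 held none of the motifs searched in its 500 bases.

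Each member is a single-exon gene with no annotated gene overlapping it in R64. TIR1 lies at chrV:175248-176012 (+ strand) and TIR3 at chrIX:333727-334536 (+ strand). TIR4 at chrXV:344335-345798 (+ strand) and TIR2 at chrXV:346195-346950 (− strand) face each other across 396 bases. DAN1 at chrX:708811-709707 and DAN4 at chrX:712255-715740, both on the − strand, follow each other at a gap of 2547 bases, 36.0 kb and 30.0 kb from the chromosome end. DAN2 lies at chrXII:222685-223059 (− strand), and DAN3, at chrII:809057-809419 (+ strand), is the member nearest a telomere, 3.77 kb from the end.

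Most members can be counted apart from one another. TIR3, TIR4, DAN1 and DAN4 shared 0 of their 31-base coding words with any other gene, and TIR1 and TIR2 shared only 13 words with each other (1.77% of those of TIR1), although their coding sequences were identical at 78.5% of aligned bases. The short seripauperin genes are different. DAN2 shared 19.7% of its words with 6 PAU genes, and DAN3 shared 74.8% with 15 PAU genes, chiefly PAU12, so the count of DAN3 is an apportioned estimate and is uncertain.

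Estimated counts summed to between 8327735 and 80651761 per library, spike-ins included. Spike-in RNA made up 0.946% and 5.19% in the 2 [ESI+] libraries and 1.43% to 3.31% in the others. The 2 [ESI+] libraries stood apart in their reads over genes that were silent in the other groups, with a median of 0.301 and 1.43 CPM per kb (TMM-scaled library-size-normalised counts, CPM, per kilobase of length). The other 8 libraries had 0 to 0.0869. Over mitochondrial genes the medians were 2.23 and 12.1 CPM per kb in [ESI+] and 0 elsewhere. The deleted genes checked the labels: HOS2 was at 0.04 and 0 CPM in the hos2 deletion, SET3 at 0.03 and 0 CPM in the set3 deletion and SNT1 at 0.06 and 0.26 CPM in the snt1 deletion, and no other library was below 4.20, 3.97 and 34.4 CPM for these genes. Of the 3 mating-type genes examined, MATALPHA2 had 0.571 to 3.05 CPM per library and HMRA1 0.227 to 2.39. MATALPHA1 was near absent, at 0 to 0.535 CPM, with its highest values in the [ESI+] libraries. The 9 genes specific to haploids summed to 11.1 to 26.6 CPM per library, above the 1.03 to 5.86 CPM of the 3 mating-type genes. The highest single value was 9.23 CPM, for STE2 in the first hos2 library. These levels do not by themselves show that the cells were diploid.

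TIR1, 1 of 4 members with all 6 deletion libraries below both naive ones, was called lower in each of the 3 deletions of Set3 complex subunits. This cell wall mannoprotein gene, induced by cold shock as well as by lack of oxygen, fell to 27.3% of its naive level in the hos2 deletion, 27.1% in the set3 deletion and 29.1% in the snt1 deletion, and was 2.47-fold higher in [ESI+] than in the mean of the 3. In CPM, TIR1 had 33.9 and 50.1 in [ESI+], 20.2 and 13.0 in hos2 deletants, 17.7 and 15.2 in set3 deletants, 19.2 and 16.4 in snt1 deletants, and 43.2 and 79.4 in naive diploids. All 6 deletion libraries lay below both [ESI+] libraries, which overlapped the naive ones. In a bulk culture fewer cells that express TIR1 and less TIR1 RNA per cell cannot be told apart. The log2 fold change against naive, ± its standard error (SE) from 2 libraries a group, was -1.87 ± 0.32 in the hos2 deletion (edgeR quasi-likelihood test, adjusted p = 0.00819), -1.88 ± 0.32 in the set3 deletion (adjusted p = 0.015) and -1.78 ± 0.32 in the snt1 deletion (adjusted p = 0.0374). For [ESI+] against naive it was -0.54 ± 0.31 and missed the threshold of 0.05 (adjusted p = 0.202). The 3 deletions were not distinguishable from one another for TIR1 (adjusted p = 0.978 for any difference among them).

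Averaged over the 3 deletions, TIR1 stood at 27.8% of its naive level (log2 fold change -1.85 ± 0.24, adjusted p = 0.00165), and 83 of the 6390 genes had a lower fold change. That call held when any 1 of the 10 libraries was left out, with log2 values between -2.22 and -1.35. The single deletions rested on fewer libraries. The hos2 call was lost without the second naive library (-1.38, adjusted p = 0.067) or the second hos2 library (-1.59, adjusted p = 0.0581), and the set3 call without the second naive library (-1.39, adjusted p = 0.105), the first set3 library (-2.01, adjusted p = 0.115) or the second set3 library (-1.78, adjusted p = 0.184). The snt1 call held in 4 of 10 such fits. It was lost without the second naive library (-1.29, adjusted p = 0.189), the second [ESI+] library (-1.78, adjusted p = 0.0555), either set3 library (-1.77, adjusted p = 0.0716, and -1.78, adjusted p = 0.0772) or either snt1 library (-1.89, adjusted p = 0.0505, and -1.65, adjusted p = 0.196), and also with the replicate number as a block (-1.76, adjusted p = 0.0521) or after subtraction of reads at the level of silent genes (-1.79, adjusted p = 0.0592).

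**Figure D1:**
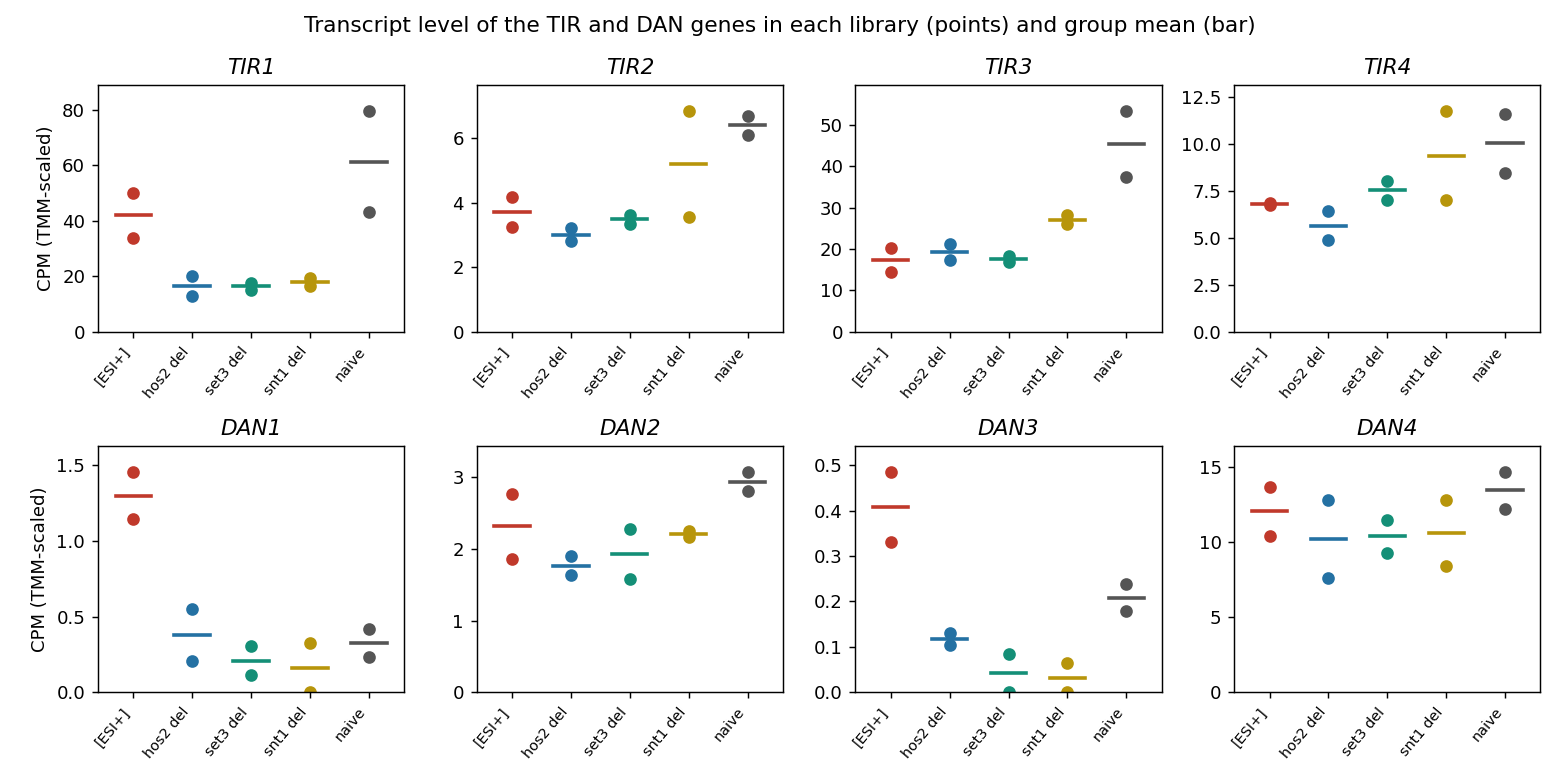
Abundance of each DAN and TIR gene in TMM-scaled CPM (vertical axes, starting at 0, a scale of its own in each panel), with 1 point per library and a bar at the mean of the 2 libraries of each group, from [ESI+] at the left to naive at the right. TIR1 and TIR3 show the naive libraries above all 6 deletion libraries, while for TIR1 but not for TIR3 both [ESI+] libraries (33.9 and 50.1) are above the deletions, and DAN1 is at most 1.45 CPM in any library.

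TIR3, whose product is also a wall mannoprotein needed for anaerobic growth, was lower in [ESI+] as well as in the hos2 and set3 deletions. It had 20.3 and 14.4 CPM in [ESI+], 17.3 and 21.1 in hos2 deletants, 18.2 and 16.9 in set3 deletants, 28.2 and 26.0 in snt1 deletants, and 37.4 and 53.3 in naive diploids. No library of the other 4 groups reached the lower naive value. Against naive, the log2 fold change was -1.39 ± 0.23 in [ESI+] (adjusted p = 0.00213), -1.24 ± 0.23 in the hos2 deletion (adjusted p = 0.0116), -1.36 ± 0.24 in the set3 deletion (adjusted p = 0.014) and -0.74 ± 0.23 in the snt1 deletion (adjusted p = 0.308). The snt1 value missed the threshold, but the difference among the 3 deletions was not past it either (edgeR quasi-likelihood test, adjusted p = 0.278), so the snt1 deletion was not shown to differ from the other two.

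Over the mean of the 3 deletions TIR3 stood at 46.2% of naive (log2 fold change -1.11 ± 0.18, adjusted p = 0.00526), and that call was lost only without the second naive library among the 10 left out in turn (-0.85, adjusted p = 0.155). The [ESI+] call was lost without the second [ESI+] library (-1.16, adjusted p = 0.0518) and in limma on log2(TPM + 1) (-0.60, adjusted p = 0.0937). That model also lost the hos2 call (-0.84, adjusted p = 0.135) and the set3 call (-1.17, adjusted p = 0.0696). The hos2 call was lost without the second naive (-0.97, adjusted p = 0.134) or the first hos2 library (-1.10, adjusted p = 0.175). The set3 call was lost without the second naive (-1.09, adjusted p = 0.151), the first set3 (-1.43, adjusted p = 0.126) or the second set3 library (-1.31, adjusted p = 0.178). [ESI+] did not differ from the mean of the deletions for TIR3 past the threshold (-0.27 ± 0.19, adjusted p = 0.277).

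TIR2 and TIR4, the convergent pair on chromosome XV, were less abundant and none of their comparisons passed the test. TIR2, the cold-shock-induced relative of TIR1, had 3.26 and 4.17 CPM in [ESI+], 2.80 and 3.21 in hos2 deletants, 3.33 and 3.63 in set3 deletants, 3.55 and 6.83 in snt1 deletants, and 6.11 and 6.70 in naive diploids. The second snt1 library was above both naive libraries and the other 7 were below them. TIR4, a mannoprotein gene required for anaerobic growth, had 6.88 and 6.75 CPM in [ESI+], 4.89 and 6.43 in hos2 deletants, 7.03 and 8.05 in set3 deletants, 7.04 and 11.8 in snt1 deletants, and 8.48 and 11.6 in naive diploids. Here too the second snt1 library was above both naive libraries, and the other 7 were below both. The lowest fold changes of the pair were those of the hos2 deletion against naive, -1.10 ± 0.33 for TIR2 (adjusted p = 0.0623) and -0.83 ± 0.28 for TIR4 (adjusted p = 0.0936). In [ESI+] against naive they were -0.78 ± 0.32 (adjusted p = 0.0832) and -0.55 ± 0.27 (adjusted p = 0.145). Across the 10 libraries the log2 levels of the 2 genes ran together (Pearson r = 0.90), a description over libraries that also share group and depth.

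DAN4 and DAN2 gave no call in any comparison. DAN4, the longest member, encodes a mannoprotein of the anaerobic wall and had 10.4 and 13.7 CPM in [ESI+], 7.59 and 12.8 in hos2 deletants, 9.29 and 11.5 in set3 deletants, 12.8 and 8.41 in snt1 deletants, and 12.2 and 14.6 in naive diploids. Only the 2 set3 libraries lay wholly below the naive ones. DAN2 had 1.87 and 2.77 CPM in [ESI+], 1.63 and 1.90 in hos2 deletants, 2.28 and 1.59 in set3 deletants, 2.25 and 2.17 in snt1 deletants, and 3.07 and 2.80 in naive diploids. Every non-naive library of DAN2 lay below both naive libraries, yet the fold changes against naive, between -0.74 and -0.35, had adjusted p from 0.27 to 0.794. For DAN4 they lay between -0.41 and -0.15, with adjusted p from 0.424 to 0.772. In the [ESI+] libraries 69.9 and 440 of the 692 and 1207 DAN4 counts were at the level set by silent genes, and 7.52 and 47.3 of the 124 and 244 DAN2 counts.

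DAN1 and DAN3 were nearly silent everywhere, with their highest values in [ESI+]. DAN1, another gene for an anaerobic wall mannoprotein, had 76 and 128 counts in [ESI+], 44 and 4 in hos2 deletants, 22 and 1 in set3 deletants, 0 and 5 in snt1 deletants, and 12 and 3 in naive diploids. As CPM these were 1.14 and 1.45 in [ESI+], 0.55 and 0.207 in hos2 deletants, 0.306 and 0.113 in set3 deletants, 0 and 0.328 in snt1 deletants, and 0.419 and 0.234 in naive diploids. Both [ESI+] libraries were above all others. The seripauperin gene DAN3 had 0.33 and 0.484 CPM in [ESI+], 0.13 and 0.104 in hos2 deletants, 0.0852 and 0 in set3 deletants, 0 and 0.0657 in snt1 deletants, and 0.237 and 0.179 in naive diploids. It too was highest in [ESI+], on 22.0 and 42.7 estimated counts.

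Against naive neither gene passed the test in [ESI+], with 1.91 ± 0.88 for DAN1 (adjusted p = 0.117) and 0.96 ± 0.89 for DAN3 (adjusted p = 0.436). In the snt1 deletion DAN3 rested on 1 count against 9 in naive, a ratio of 13.9% with a 95% exact binomial interval that starts at 0.316% and includes equality, which covers counting error only, and the other DAN1 and DAN3 comparisons of deletions with naive had adjusted p from 0.357 to 0.9. The level of silent genes moved with these values: over the length of DAN1 it came to 23.7% and 88.4% of the counts of the 2 [ESI+] libraries, and over that of DAN3 to 33.1% and 107%. DAN1 exceeded the cutoff of 0.391 CPM in 4 libraries, 2 of them [ESI+], and DAN3 in the 2 [ESI+] libraries alone, so DAN3 was tested only because [ESI+] was high and its fold changes carry no support.

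**Figure D2:**
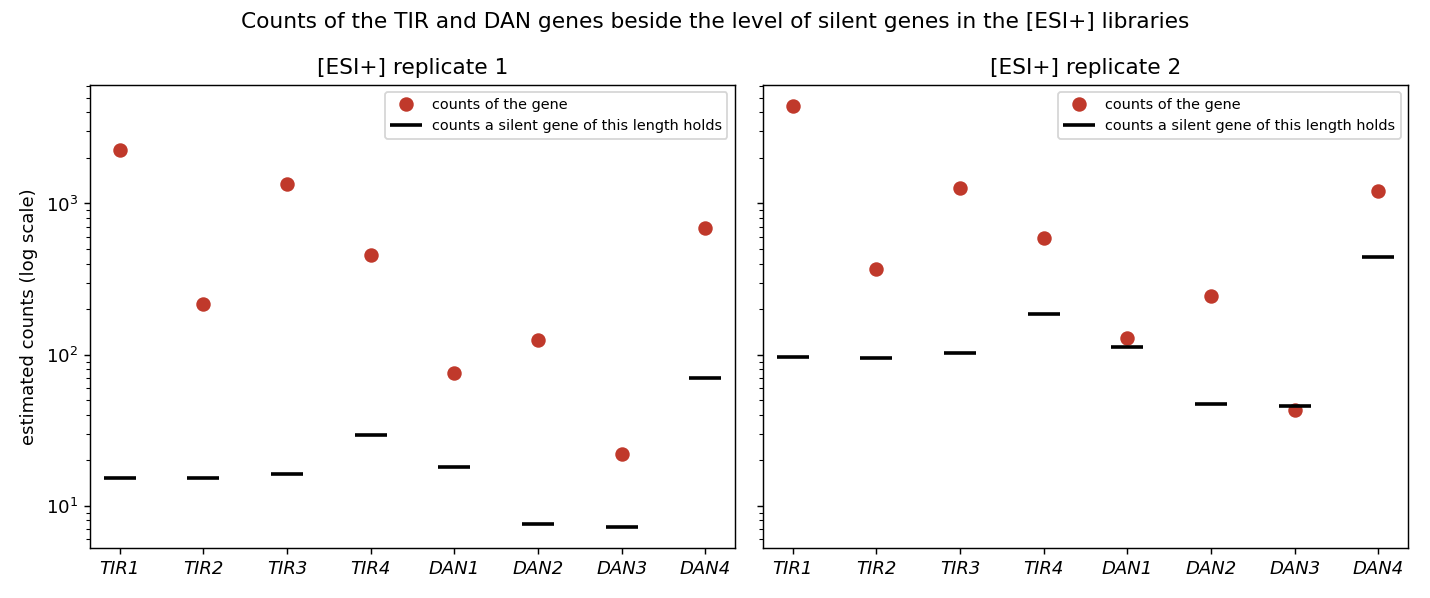
Estimated counts of each member in the 2 [ESI+] libraries (log axis) beside the counts that the median silent gene of the same library would give over the member's length. TIR1, with 2258 and 4418 counts against levels of 15.3 and 96.5, lies furthest above it, whereas DAN1 in the second library has 128 counts against a level of 113, and DAN3 has 42.7 against 45.8.

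Set directly against the mean of the 3 deletions, [ESI+] was higher for TIR1 and DAN1 and lower for 0 of the members, where 35.1% of all genes were called and 19.2% were higher. DAN3 passed the threshold too, but it passed the count filter only through the [ESI+] libraries, so its value is given as a description. TIR1, at 42.0 ± 11.4 CPM in [ESI+] (SD, n = 2), was higher than in the deletions (log2 difference 1.30 ± 0.24, adjusted p = 0.00282), which was lost without the second [ESI+] library (1.00, adjusted p = 0.0868) or with spike-in scaling (2.14, adjusted p = 0.0917). Under spike-in scaling the median of all genes was 1.10 in this comparison. After subtracting reads at the silent-gene level the TIR1 difference was 1.46 (adjusted p = 0.00337). DAN1 was higher by 2.35 ± 0.64 (adjusted p = 0.015), but by 1.22 after that subtraction (adjusted p = 0.26), and its call was lost without the first [ESI+] library (2.50, adjusted p = 0.0509), the second [ESI+] library (2.16, adjusted p = 0.139) or the second hos2 library (2.14, adjusted p = 0.0518). The value of DAN3 was 2.65 ± 0.73 (adjusted p = 0.0164). It failed the count filter after the subtraction or without the second [ESI+] library, and missed the threshold without the first hos2 (2.70, adjusted p = 0.061), the second hos2 (2.56, adjusted p = 0.0627) or the first snt1 library (2.24, adjusted p = 0.0502). For TIR1, DAN1 and DAN3 both [ESI+] libraries lay above all 6 deletion libraries, as they did for 25.9% of all genes. For the other 5 members the difference lay between -0.27 and 0.22.

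As a family, the 8 genes were below their naive level more often than not, although in [ESI+] 4 of the 6 lower values turned with spike-in scaling, and few calls were made. The members and the gene lists below were chosen with earlier results of these data known. Their counts beside the shares of all genes are therefore a description. Against naive, edgeR called 0 members higher in any group. At an unadjusted p under 0.05 it had 1 higher, in [ESI+], DESeq2 called 0 and limma called 2, in [ESI+]. There limma called 2837 of all 6390 genes in either direction. By edgeR, 13.9% of all genes were called higher in [ESI+], 2.96% in the hos2 deletion, 0.579% in the set3 deletion, 0.0626% in the snt1 deletion and 1.11% in the mean of the deletions. In [ESI+] 1 of 8 was called lower, where 28.3% of all genes were called and 14.5% were called lower. In the hos2 deletion 2 of 8 were called lower, against 7.65% of all genes called and 4.69% lower. In the set3 deletion 2 of 8 were called lower, against 2.5% called and 1.92% lower, and in the snt1 deletion 1 of 8, against 0.454% called and 0.391% lower. For the mean of the 3 deletions 2 of 8 were called lower, against 4.41% called and 3.3% lower. Among the deletions 0 of 8 members differed (1 at an unadjusted p under 0.05, TIR3), against 0.939% of all genes called, which is 60 genes, and 1090 genes at an unadjusted p under 0.05.

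The median log2 fold change of the 8 members against naive was -0.44 in [ESI+], -0.82 in the hos2 deletion, -0.72 in the set3 deletion and -0.57 in the snt1 deletion. The medians of all genes were 0.09 in [ESI+], 0.03 with hos2 deleted, 0.004 with set3 deleted and -0.004 with snt1 deleted. A value below 0 was found for 6 of the 8 members in [ESI+], 7 with hos2 deleted, 8 with set3 deleted and 8 with snt1 deleted. Of all genes, 45.3%, 47.9%, 49.5% and 50.4% were below 0 in these comparisons, in that order. Both libraries lay below both naive libraries for 4 members in [ESI+], where 32.5% of all genes did so, and above them for 2, where 39.7% did so. The corresponding counts were 6 in the hos2 deletion (26.6% of all genes), 7 in the set3 deletion (24.5%) and 4 in the snt1 deletion (17.3%). All 6 deletion libraries lay below both naive ones for 4 members, TIR1, TIR3, DAN2 and DAN3 (7.89% of all genes). These comparisons share the same 2 naive libraries and so are not independent. DAN3 is among the members in these counts and medians. It passed the count filter only through the [ESI+] libraries, so its part carries no support. The second naive library was the higher of the 2 for 5 members, among them TIR1. The summed level of all 8 members was 78.1 and 93.8 CPM in [ESI+], 55.1 and 58.8 in hos2 deletants, 58.3 and 57.0 in set3 deletants and 73.1 and 71.9 in snt1 deletants, against 111 and 169 in naive diploids. TIR1 and TIR3 together made up 56.4% to 78.6% of that sum.

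Scaling by the spike-in RNA instead of TMM left 0 members called against naive and moved all genes: the median log2 fold change over all genes was then 0.80 in [ESI+], 0.25 in the hos2 deletion, -0.50 in the set3 deletion and -0.66 in the snt1 deletion. Under it the sign in [ESI+] turned for TIR1 (0.25), TIR4 (0.30), DAN2 (0.15) and DAN4 (0.51), which are below 0 under TMM. The spike-in share was 0.946% in the first [ESI+] library and 5.19% in the second, so this scaling is uncertain for that group. Relative to the shifted median, TIR1 was at -0.55 in [ESI+], -1.60 in the hos2 deletion, -1.66 in the set3 deletion and -1.50 in the snt1 deletion, and TIR3 was at -1.17 in [ESI+], -1.15 with hos2 deleted, -1.24 with set3 deleted and -0.58 with snt1 deleted. Every direction given here for [ESI+] is therefore one relative to the bulk of its own transcripts. Between the 2 scalings the sign of TIR1 and TIR3 in the deletions did not turn.

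**Figure D3:**
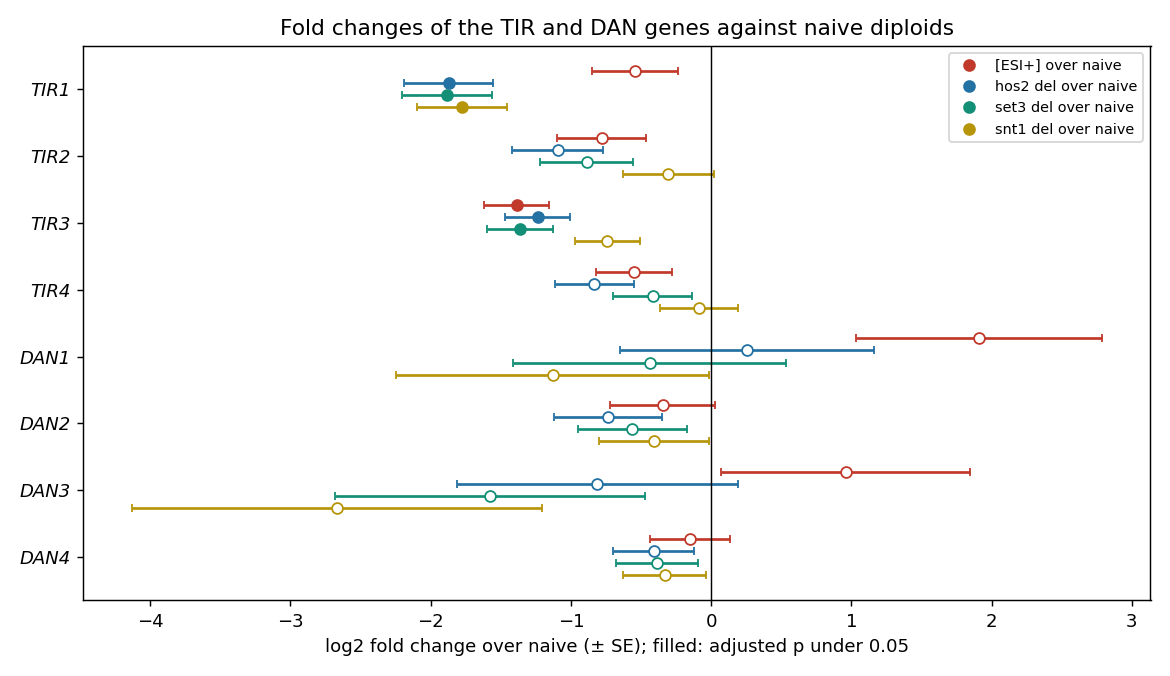
Log2 fold change of each member against naive, ± SE from the edgeR fit, for [ESI+] and the 3 deletions, where filled symbols passed the threshold and open ones did not. TIR1 is between -1.88 and -1.78 in the 3 deletions and at -0.54 in [ESI+] (0.25 with spike-in scaling), TIR3 is lowest in [ESI+] at -1.39, and DAN1 and DAN3 carry SEs between 0.88 and 1.46.

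Per unit length TIR1 and TIR3 were the first 2 members in every group by their means. In naive diploids TIR1 led with 80.1 ± 33.4 CPM per kb (SD, n = 2) and TIR3 followed with 56.0 ± 13.8, and the 2 ranges overlapped. TIR2 (8.47), DAN2 (7.84) and TIR4 (6.86) came next with overlapping neighbours, then DAN4 (3.85), DAN3 (0.574) and DAN1 (0.364). In each deletion the mean of TIR3 was above that of TIR1, but the libraries of the 2 genes overlapped in hos2 deletants (21.4 and 26.1 CPM per kb for TIR3, 26.4 and 17.0 for TIR1) and in set3 deletants (22.5 and 20.9 for TIR3, 23.1 and 19.9 for TIR1). They did not overlap in snt1 deletants (34.8 and 32.1 for TIR3, 25.1 and 21.4 for TIR1). This level per length compares genes, whereas the fold changes above compare groups.

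None of the regulators of the family was called in the deletions. Of 9 regulators of anaerobic and sterol genes, edgeR called 0 in any of the 3 deletions against naive (1 at an unadjusted p under 0.05, in the set3 deletion, and 0 by DESeq2 or limma). In [ESI+] 1 was higher and 2 were lower, where 13.9% of all genes were higher and 14.5% lower. UPC2, the activator, had 20.2 and 20.8 CPM in [ESI+], from 16.7 to 27.1 in the 6 deletion libraries, and 22.4 and 24.6 in naive diploids, with fold changes between -0.20 and -0.12 that all missed the threshold. ROX1, the heme-dependent repressor, had 10.8 and 9.37 CPM in [ESI+], against 20.2 and 16.5 in naive diploids (-0.87 ± 0.24, adjusted p = 0.0207). It was 13.3 to 22.3 CPM in the deletions, where its values against naive ran from -0.24 to 0.19 with none called. The ROX1 call was lost without the first naive library or either [ESI+] library, with values from -1.08 to -0.72 over all 10 fits, and with spike-in scaling (-0.16) or limma (-0.11). TUP1, the corepressor gene, the other regulator called lower, was at -1.08, against -0.10 with spike-in scaling and -0.34 with limma, both not called, and its call was lost too without the second naive or either [ESI+] library. Over the list limma called 0 regulators lower and 2 higher in [ESI+], where it called 2837 of all 6390 genes in either direction.

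MOT3, the second repressor, had 9.48 and 12.6 CPM in [ESI+], against 16.7 and 18.5 in naive diploids (-0.67 ± 0.26, adjusted p = 0.0705), and was lower in [ESI+] than in the mean of the deletions (-0.84 ± 0.22, adjusted p = 0.0127, lost without either [ESI+] library, range -1.06 to -0.66, and 0.06 with spike-in scaling). Relative to the median of all genes, that spike-in value of MOT3 was -1.04. TUP1, the corepressor gene, was lower in [ESI+] than in naive (-1.08 ± 0.33, adjusted p = 0.0291), but the call was lost without the second naive library or either [ESI+] library (range -1.37 to -0.81) and after subtraction of reads at the silent-gene level. SUT2, a sterol uptake regulator gene, was higher in [ESI+] (0.73 ± 0.21, adjusted p = 0.0229) and held in 5 of 10 fits that left out 1 library (range 0.68 to 0.76), being lost without either naive, either [ESI+] or the second hos2 library. HAP1, the heme-responsive activator gene, gave values from -0.18 to 0.24 against naive with none called; BY4743 carries a transposon insertion in HAP1.

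A minority of the other genes of anaerobic and low-oxygen growth was called in any comparison against naive. Of 16 measured, 5 were lower and 2 higher in [ESI+], where 14.5% of all genes were lower and 13.9% higher, and limma called 1 lower and 5 higher. With hos2 deleted 4 were lower and 0 higher (4.69% of all genes lower, 2 of the list by limma), and with set3 deleted 3 were lower and 0 higher (1.92% of all genes lower, 2 of the list by limma). Over all 6390 genes limma called 2837 in [ESI+], 142 with hos2 deleted and 49 with set3 deleted, in either direction. In the snt1 deletion edgeR called 0 (3 lower at an unadjusted p under 0.05, 1 lower by DESeq2 and 0 by limma). The list's medians against naive were -0.11 in [ESI+], -0.76 in the hos2 deletion, -0.99 in the set3 deletion and -0.19 in the snt1 deletion. CYC7, the gene for the hypoxic form of cytochrome c, had 10.6 and 7.84 CPM in [ESI+], 1.49 and 2.54 in hos2 deletants, 1.97 and 1.25 in set3 deletants, 2.72 and 2.10 in snt1 deletants, and 15.1 and 6.85 in naive diploids. All 6 deletion libraries were below every [ESI+] and naive library. CYC7 fell by 2.52 in the hos2 deletion (SE 0.41, adjusted p = 0.007) and by 2.69 in the set3 deletion (SE 0.43, adjusted p = 0.0109), and its value in the snt1 deletion was -2.20 ± 0.42 (adjusted p = 0.0526). In [ESI+] it was -0.28 ± 0.38 (adjusted p = 0.61), and [ESI+] against the mean of the deletions was 2.19 ± 0.29 (adjusted p = 0.0007), a call kept in all 10 fits that left out 1 library. The hos2 call was lost without the first hos2 library (range -2.97 to -1.81), and the set3 call without the first naive or either set3 library (range -3.17 to -1.99).

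ANB1 and HEM13 were called lower in [ESI+] as well as in the hos2 and set3 deletions. ANB1, the hypoxic form of translation factor eIF5A, which shares 6.76% of its 31-base words with HYP2, had 12.6 and 7.12 CPM in [ESI+], 6.07 and 5.55 in hos2 deletants, 5.38 and 5.56 in set3 deletants, 16.5 and 5.98 in snt1 deletants, and 25.1 and 28.8 in naive diploids. Its log2 fold change against naive was -1.45 ± 0.40 in [ESI+] (adjusted p = 0.0244), -2.21 ± 0.42 in the hos2 deletion (adjusted p = 0.0153), -2.30 ± 0.43 in the set3 deletion (adjusted p = 0.026) and -1.25 ± 0.41 in the snt1 deletion (adjusted p = 0.376). The [ESI+] call was lost without either naive or the second [ESI+] library (range -1.93 to -1.09), the hos2 call without the second naive or either hos2 library (-2.30 to -2.12) and the set3 call without either naive, either hos2 or either set3 library (-2.40 to -2.20). HEM13, the oxygen-dependent step of heme synthesis, had 121 and 91.7 CPM in [ESI+], 98.1 and 102 in hos2 deletants, 95.9 and 108 in set3 deletants, 282 and 226 in snt1 deletants, and 241 and 357 in naive diploids. The first snt1 library lay in the naive range and the second just under it, while the other 6 were at 121 or lower. HEM13 was called lower in [ESI+] (-1.49 ± 0.26, adjusted p = 0.00241), the hos2 deletion (-1.58 ± 0.26, adjusted p = 0.00594) and the set3 deletion (-1.55 ± 0.26, adjusted p = 0.0117) but not the snt1 deletion (-0.23 ± 0.25, adjusted p = 0.813), and the difference among the deletions passed the test (adjusted p = 0.0337, lost without either [ESI+], either hos2 or either set3 library). The naive calls of HEM13 were lost without the second [ESI+] library in [ESI+] (range -1.75 to -1.25), without the second naive or first hos2 library in the hos2 deletion (-1.83 to -1.27) and without the second naive or either set3 library in the set3 deletion (-1.81 to -1.25).

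**Figure D4:**
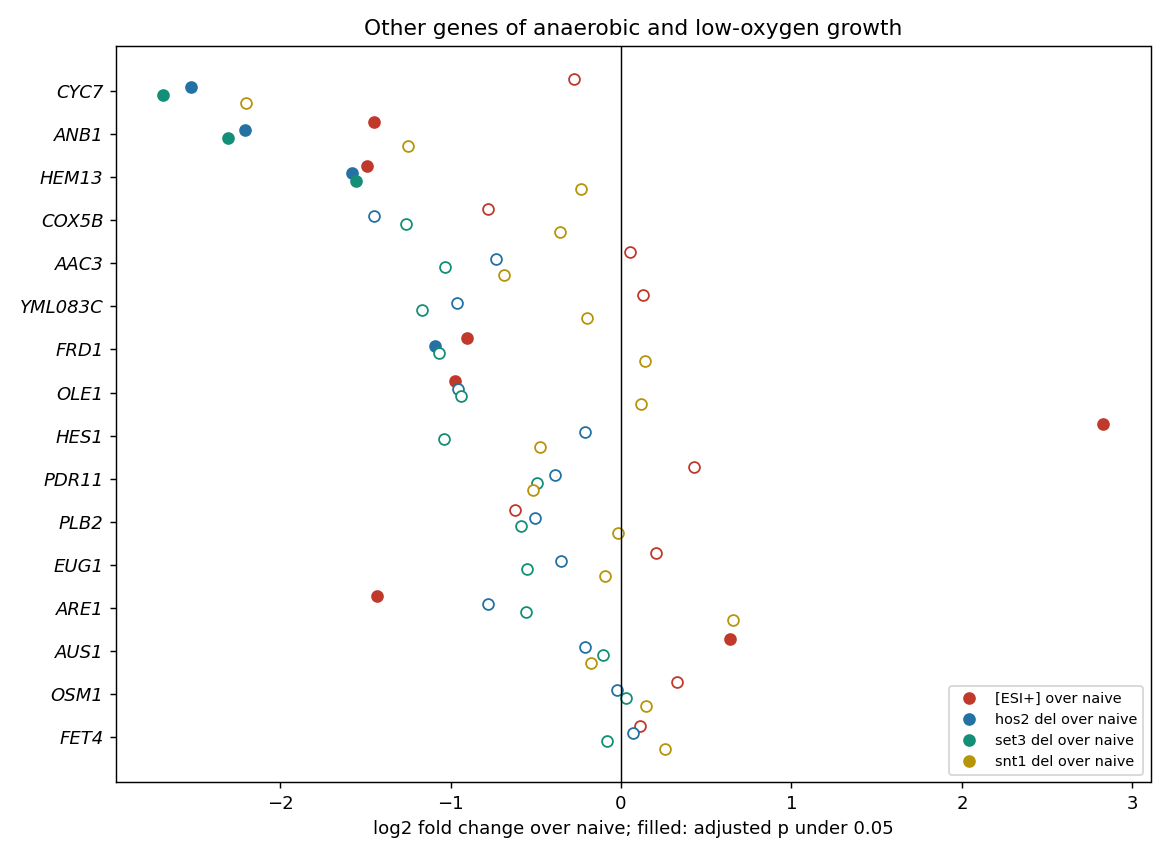
Log2 fold change against naive of the 16 other genes of anaerobic and low-oxygen growth in [ESI+] and the 3 deletions, where filled symbols passed the threshold and open ones did not. CYC7 is between -2.69 and -2.20 in the deletions and at -0.28 in [ESI+], while HEM13 is low in [ESI+] and in the hos2 and set3 deletions but at -0.23 in the snt1 deletion.

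The 2 genes of this list called higher in [ESI+] than in naive were AUS1, a sterol importer gene, and HES1, an oxysterol-binding protein gene. AUS1, whose start faces that of TIR2 across 2728 bases, had 22.2 and 26.9 CPM in [ESI+], against 15.6 and 15.8 in naive (0.64 ± 0.21, adjusted p = 0.0424), a call lost without either naive, either [ESI+], either hos2 or the first set3 library (range 0.50 to 0.76) and after subtraction of reads at the silent-gene level (0.58, adjusted p = 0.0604). HES1 had 0.721 and 2.29 CPM in [ESI+], against 0.244 and 0.156 in naive (2.83 ± 0.79, adjusted p = 0.0219), lost without either naive or the second [ESI+] library (range 1.76 to 3.42) and 1.51 after that subtraction (adjusted p = 0.225). Against the mean of the deletions, 6 of the 16 were higher and 1 lower in [ESI+], where 19.2% of all genes were higher and 15.9% lower.

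Ergosterol synthesis genes gave 0 calls of 24 in each deletion against naive by edgeR, DESeq2 or limma, with at most 2 at an unadjusted p under 0.05. In [ESI+] 2 were lower and 0 higher, where 14.5% of all genes were lower and 13.9% higher. They were ERG2, a sterol isomerase gene (-0.87 ± 0.23, adjusted p = 0.0187), and NCP1, the reductase partner of the pathway (-1.05 ± 0.31, adjusted p = 0.0274). Each was lost without the second naive or either [ESI+] library (ranges -1.08 to -0.70 and -1.42 to -0.63). Both calls were also lost with spike-in scaling (ERG2 -0.01, NCP1 -0.13) and with limma (ERG2 -0.06, NCP1 -0.27), and over the list DESeq2 called 8 lower and 0 higher in [ESI+], limma 0 lower and 3 higher. Over all 6390 genes DESeq2 called 2051 and limma 2837 there, in either direction. Of 8 heme synthesis genes, 4 were lower in [ESI+], where 14.5% of all genes were: HEM1 (-1.19 ± 0.31, adjusted p = 0.0155), HEM2 (-0.76 ± 0.20, adjusted p = 0.0171, 0.12 with spike-in scaling), HEM12 (-0.63 ± 0.19, adjusted p = 0.0294, 0.24 with spike-in scaling) and HEM13. The first 3 of these calls were lost without the second naive or the second [ESI+] library (ranges -1.59 to -0.72, -0.93 to -0.61 and -0.78 to -0.53), those of HEM1 and HEM12 also without the first [ESI+] library and that of HEM12 without the first hos2 library. With hos2 or set3 deleted, HEM13 was the 1 gene of the list that edgeR called lower (4.69% and 1.92% of all genes). At an unadjusted p under 0.05, 5 of the 8 were lower in each. DESeq2 called 3 lower with hos2 deleted and 2 with set3 deleted, and limma 1 in each. Over all 6390 genes DESeq2 called 745 and 387, and limma 142 and 49, in either direction. The seripauperins other than DAN2 and DAN3 number 22, of which 9 passed the count filter. Of these 9, 2 were lower in [ESI+], PAU6 and PAU18, which have the same value and cannot be told apart (-1.29 ± 0.42, adjusted p = 0.0383, lost without any 1 of the naive and [ESI+] libraries, lowest value -1.69). In the deletions, single or averaged, 0 were called by edgeR, DESeq2 or limma. At an unadjusted p under 0.05 there were 0 in each single deletion and 2, both lower, in their mean. The 22 summed to 7.34 and 19.0 CPM in [ESI+], 7.16 and 10.1 in hos2 deletants, 10.5 and 7.37 in set3 deletants, 11.7 and 8.21 in snt1 deletants, and 14.7 and 14.2 in naive diploids.

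Mannoproteins of the aerobic wall were also lower in [ESI+], in every scaling by sign. All 7 measured (CWP1, CWP2, CCW12, CCW14, SED1, SPI1 and TIP1) were lower in [ESI+] than in naive, against 14.5% of all genes. In the hos2 deletion 4 of 7 were lower (4.69% of all genes), in the set3 deletion 1 (1.92%), and in the snt1 deletion 0 (0.391%). In the snt1 deletion 2 of the 7 were at an unadjusted p under 0.05, and 0 were called by DESeq2 or limma. In limma 5 of the 7 were called lower in [ESI+], where it called 2837 of all 6390 genes in either direction. CWP2 had 504 and 399 CPM in [ESI+], against 2585 and 1847 in naive diploids (-2.29 ± 0.30, adjusted p = 0.00078). The [ESI+] calls of CWP2, CCW12 and SPI1 held in all 10 fits that left out 1 library, and those of TIP1, SED1, CCW14 and CWP1 were lost without the second [ESI+] library, that of CWP1 also without the first [ESI+] or the second naive library (highest value over the 4 genes -1.13). SPI1, a stress-responsive wall protein gene, had 46.7 and 43.3 CPM in [ESI+], 36.9 and 58.8 in hos2 deletants, 53.9 and 47.8 in set3 deletants, 86.9 and 86.6 in snt1 deletants, and 166 and 133 in naive diploids. Its fold changes against naive were -1.73 ± 0.24 in [ESI+] (adjusted p = 0.00115), -1.65 ± 0.24 in the hos2 deletion (adjusted p = 0.00403) and -1.55 ± 0.24 in the set3 deletion (adjusted p = 0.00918). The hos2 call of SPI1 was lost without the first hos2 library (range -2.02 to -1.35) and the set3 call without the first naive or either set3 library (-1.71 to -1.38). The hos2 calls of SED1, CWP2 and CWP1 were each lost without either naive, either [ESI+] or either hos2 library, and that of SED1 also without either set3 library (highest value over the 3 genes -0.87).

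Of the genes next to the members none was called in a deletion against naive, but most of those tested were higher in [ESI+] than in the deletions. Of 12 neighbouring genes that are not members, 9 were tested, and edgeR, DESeq2 and limma called 0 of 9 in any deletion against naive (at most 2 at an unadjusted p under 0.05). In [ESI+] against naive 2 were higher, AUS1 beside TIR2 and YJR149W beside DAN1, and 1 was lower, YER010C beside TIR1. Of all genes, 13.9% were higher and 14.5% lower there. YJR149W, which ends 436 bases from DAN1, had 2.87 and 4.16 CPM in [ESI+], against 1.54 and 1.01 in naive (1.43 ± 0.42, adjusted p = 0.0255, lost without the second naive, second [ESI+] or second hos2 library, range 1.11 to 1.79). YER010C had 15.8 and 12.9 CPM in [ESI+], against 23.1 and 30.0 in naive (-0.88 ± 0.21, adjusted p = 0.0101, lost without the second naive or second [ESI+] library, range -1.07 to -0.75, and 0.03 with spike-in scaling). Against the mean of the 3 deletions, edgeR called 6 of the 9 neighbours higher in [ESI+] and 1 lower, where it called 19.2% of all genes higher. DESeq2 also gave 6 and 1, and limma 7 and 0. Of all 6390 genes DESeq2 called 2416 and limma 3370 there, in either direction. MAL32, a maltase gene beside DAN3, was higher by 2.30 ± 0.45 (adjusted p = 0.00339) and YJR149W beside DAN1 by 1.38 ± 0.31 (adjusted p = 0.00665). After subtracting reads at the silent-gene level these were 1.37 (adjusted p = 0.0469) and 1.05 (adjusted p = 0.0192). The other 4 higher ones were YIL012W (2.79, and 2.14 with adjusted p = 0.06 after the subtraction), YLR036C (1.35), AUS1 (0.81) and COS2 (0.63), and YER010C was lower (-0.58, but 0.57 with spike-in scaling and 0.13 with limma). The medians of all genes in this comparison were 1.10 with spike-in scaling and 0.67 with limma. All 7 calls were lost without the second [ESI+] library, and all but that of MAL32 with spike-in scaling. The estimated counts of MAL32 were not whole numbers (109.9 and 329.9 in [ESI+]). They are apportioned between targets with shared sequence and may not all come from the locus beside DAN3. The same limit holds for COS2 (2767.5 and 3369.3 in [ESI+]).

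The genes whose pattern over the 10 libraries was most like each member's were found by Pearson r of log2(CPM + 0.5), for members with at least 10 counts in every library. For TIR1 they were YSP3 (r = 0.95), HXT9 (0.945) and YPL025C (0.945), and for TIR3 YHR112C (0.951), SUT1 (0.951) and PDR17 (0.95). SUT1, a regulator of sterol uptake, is in the list of regulators above. For TIR2 they were ACS1 (0.969), DDR2 (0.963) and YHR214W-A (0.960), and for TIR4 GPD1 (0.960), YIR016W (0.941) and YJR146W (0.940). For DAN2 the highest was PIR3, a wall protein gene (0.913), and for DAN4 HYP2 (0.880). The libraries share groups and depth, and with all genes searched such values are a description only.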

How the data were processed

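RNA was measured in 10 libraries, 2 for each of 5 diploid groups. The deposited expected counts and the deposited TPM per transcript were made by the authors with kallisto 0.44 on build R64, per the file headers and the submitters' processing notes. Whether counting used strand is not given in the sources used here.

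Expected counts were rounded to whole numbers. The 92 ERCC spike-ins were left out of the library sizes. Genes were filtered with filterByExpr, scaled by TMM and tested in edgeR 4.0.16 (R 4.3.3) by two-sided quasi-likelihood tests in 1 fit with 1 coefficient per group. P-values were adjusted by the Benjamini-Hochberg method over all 6390 genes tested, with a threshold of 0.05, and the SE is the fold change divided by the square root of F. TPM was used only in the limma 3.58.1 alternative, as log2(TPM + 1). A silent-gene level was taken per library as the median over genes of at least 300 bases whose average in the remaining groups, [ESI+] left aside, was less than 0.2 CPM per kb. The fit was tested on simulated data.

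All 8 members, the deleted genes, neighbouring genes, called genes of each list and the best-correlated genes were named by rule, with up to 4 per list by p and UPC2, ROX1, MOT3 and HAP1 in any case. Other wall genes were named as well because their values had been seen. Members and lists were chosen with earlier results of these data known. Alternatives were DESeq2 1.42.0, its size factors, spike-in sizes, no count filter, the replicate block, limma, subtraction of silent-gene reads, and each library left out. Depth limits DAN1 and DAN3, which have 0 to 128 counts per library.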

Additional observations from a re-analysis of the deposited data

Results flagged for a closer look

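For TIR1 and DAN1 [ESI+] passed the threshold against the mean of the 3 deletions in a direct edgeR test, which needs no naive library. The difference was 1.30 (log2) for TIR1 and 2.35 for DAN1, each higher in [ESI+]. The TIR1 call was lost without the second [ESI+] library or with spike-in scaling. That of DAN1 was lost without either [ESI+] library or the second hos2 library. After subtraction of reads at the silent-gene level DAN1 was at 1.22 and not called (adjusted p = 0.26). DAN3 also passed that threshold, at 2.65, but it passed the count filter only through the [ESI+] libraries, so this value is a description and carries no support. For TIR1 both [ESI+] libraries were above all 6 deletion libraries (33.9 and 50.1 CPM, against 13.0 to 20.2), and the silent-gene level was 0.679% and 2.18% of its counts in the 2 [ESI+] libraries. For DAN1 that level was 23.7% and 88.4% of the counts, and for DAN3 33.1% and 107%. The part of these reads in the DAN1 and DAN3 differences was not tested beyond the subtraction given above.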

How the results depend on the processing

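No direction of TIR1 or TIR3 against naive turned in a deletion under any alternative, and TIR1 in the mean of the deletions lost its call with spike-in sizes alone. Of the fold changes of the members recomputed under alternatives, 720 kept direction and call, 40 lost the call, 18 gained it and 26 reversed. The number of members called for [ESI+] against naive was 1, with 0 under spike-in sizes, 2 under the replicate block, limma and silent-gene subtraction, and 0 to 3 with 1 library left out. For the hos2 deletion it was 2, with 0 (spike-in), 4 (replicate block), 3 (DESeq2), 1 (limma) and 0 to 4. For the set3 deletion it was 2, with 0 (spike-in), 1 (limma) and 0 to 2. For the snt1 deletion it was 1, with 0 under spike-in sizes, the replicate block and the subtraction, and 0 to 1. For the mean of the deletions it was 2, with 0 (spike-in) and 1 to 3. For [ESI+] against that mean it was 3 (TIR1, DAN1 and DAN3), with 2 (spike-in, DAN1 and DAN3), 4 (limma), 1 after the subtraction and 0 to 3. DAN3 passed the count filter only through the [ESI+] libraries, so its calls in these counts carry no support. For the difference among the deletions it was 0, with 0 to 2. The cause was not tested.

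Replicate numbers did not pair the libraries (correlations of same-numbered deviations -0.073 to 0.35), so the block has no design behind it. Reversed signs for [ESI+] against naive were TIR1 0.25, TIR4 0.30, DAN2 0.15 and DAN4 0.51 with spike-in sizes, TIR1 0.27, TIR4 0.16, DAN2 0.49 and DAN4 0.41 with limma, and DAN4 0.018 without the first [ESI+] library (range -0.37 to 0.018). With 1 library left out, DAN1 reversed to -0.055 and -0.70 in the hos2 deletion (without the second naive or the first hos2, range -0.70 to 0.79). It reversed to 0.094 in the set3 deletion (range -1.57 to 0.094) and to 0.10 in the mean (range -2.37 to 0.10), both without the first naive library. In the snt1 deletion TIR2 reached 0.10 and TIR4 0.25 without the first snt1 library, and TIR4 0.13 without the second naive (ranges -0.84 to 0.10 and -0.49 to 0.25). For [ESI+] against the deletions TIR2, TIR3 and TIR4 were at 0.92, 0.92 and 0.96 with spike-in sizes and 0.58, 0.40 and 0.48 with limma, TIR2 at 0.13 and 0.092 without the first [ESI+] or second snt1 library (lowest -0.22), DAN2 at -0.091 without the second [ESI+] (highest 0.46), and DAN4 at -0.027 after the subtraction. The all-gene medians there were 1.10 with spike-in sizes and 0.67 with limma. Relative to them TIR2, TIR3 and TIR4 were at -0.18, -0.18 and -0.14 with spike-in sizes and at -0.09, -0.28 and -0.20 with limma. The cause of these reversals was not tested, and none was called in the TMM fit.

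Over all genes, calls against naive numbered 1810 for [ESI+] (spike-in 32, limma 2837, 275 to 2501 with 1 library left out), 489 for hos2 (spike-in 5, replicate block 848, DESeq2 745, limma 142, 26 to 968), 160 for set3 (3, 403, 387, 49, 7 to 529), 29 for snt1 (3, 59, 99, 19, 18 to 320) and 282 for the mean of the deletions (11, 544, 512, 104, 58 to 673), each in that order. For [ESI+] against the deletions they numbered 2240 (spike-in 238, limma 3370, 262 to 3110), and among the deletions 60 (spike-in 8, replicate block 348, DESeq2 515, limma 30, 12 to 755). With limma the all-gene median was 0.74 in [ESI+] against naive and 0.33 in the hos2 deletion. In [ESI+] against the mean of the deletions it was 0.67 with limma and 1.10 with spike-in sizes.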
